A study of Mus musculus with 18 samples.

Results

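The 7 genes described here encode scaffold proteins: Shank1, Shank2, Shank3, Homer1, Homer2, Homer3 and Sptan1. They were chosen by name, as the complete mouse Shank and Homer families together with the gene of αII spectrin, and all 7 were found among the 23457 genes of the count table and the 23396 genes of the FPKM table (fragments per kilobase of transcript scaled to library size, a level per length). RNA was sequenced from the ventricles of 18 male C57BL/6 mice, 6 for each of 3 recombinant adeno-associated virus serotype 6 (rAAV6) vectors. The vectors carried FLAG-tagged phospholipase Cβ1b (rAAV6-PLCβ1b), its FLAG-tagged splice variant PLCβ1a (rAAV6-PLCβ1a) or a promoter with no protein product (rAAV6-blank). Every mouse received vector through the tail vein at 8 weeks of age and hearts were collected 9 weeks later, at 17 weeks, so no uninjected heart entered any comparison. The vectors added to the endogenous gene and removed nothing, and PLCβ1a served the study as the splice variant without functional effect in heart. The sample labels describe both ventricles, whereas the study's methods name the left ventricle.

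PLCβ enzymes split a membrane phospholipid into the second messengers inositol trisphosphate and diacylglycerol. PLCβ1a and PLCβ1b share their catalytic part and differ in the C-terminal tail, and the proline-rich tail of PLCβ1b binds the SH3 domain of Shank3 at the sarcolemma. Shank proteins are large multidomain scaffolds best known from the postsynaptic density of neurons. Homer proteins bind proline-rich motifs of Shank, inositol trisphosphate receptors and other signalling proteins through their EVH1 domain and join them through a coiled coil. αII spectrin is the non-erythroid α subunit of the spectrin skeleton beneath the membrane, carries an SH3 domain of its own and is a known partner of Shank ankyrin repeats. The comparisons of the 3 groups address whether the transcripts of this scaffold changed when its PLCβ1b partner was overexpressed.

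Homer1 encodes forms with different roles. In the deposited mm10 annotation it lies on the plus strand at chr13:93304495-93404962 with 3 transcripts. One of them has 5 exons and 558 coding bases and ends at position 93356830, whereas the others have 9 or 10 exons and 1110 or 1098 coding bases and run to the end of the gene. The short form is the product known from neurons to be induced by activity, and it lacks the coiled coil that joins the long forms. Counts were made per gene, so the forms were not separated here. The RefSeq promoter table (GRCm38.p6) held windows for 5 of the 7 members, namely Sptan1, Homer1, Homer2, Homer3 and Shank3. The 250 bases upstream of the first RefSeq start of Homer1 (plus strand, chr13:93303507-93303756) are shown because Homer1 was compared below with activity-induced genes. The window of Homer2 (minus strand, chr7:81706926-81707175) is shown beside it because Homer2 gave the lowest p-value among the members. Capitals mark each occurrence of TGACGT, the core of the cAMP response element, searched on both strands.
Homer1: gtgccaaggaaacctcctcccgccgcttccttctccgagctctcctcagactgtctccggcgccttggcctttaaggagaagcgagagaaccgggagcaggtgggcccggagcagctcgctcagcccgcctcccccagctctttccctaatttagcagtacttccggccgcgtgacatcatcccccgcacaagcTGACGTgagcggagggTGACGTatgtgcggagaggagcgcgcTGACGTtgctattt
Homer2: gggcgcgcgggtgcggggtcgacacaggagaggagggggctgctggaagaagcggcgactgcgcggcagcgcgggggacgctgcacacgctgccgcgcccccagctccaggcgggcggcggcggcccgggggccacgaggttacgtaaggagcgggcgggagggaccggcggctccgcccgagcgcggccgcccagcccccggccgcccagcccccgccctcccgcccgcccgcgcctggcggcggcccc

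The Homer1 window held 3 occurrences of TGACGT, starting 56, 40 and 14 bases before the RefSeq start. The 250 bases before the second Homer1 start held 0, as did the windows of Homer2, Homer3, Shank3 and Sptan1. Among 32851 RefSeq mouse promoter windows of 250 bases, 6.47% held at least 1 occurrence and 0.152% (50 windows) held 3 or more. The deposited annotation begins Homer1 738 bases downstream and Shank3 249 bases downstream of these RefSeq starts, and the other 3 matched members begin at the same base in both. CpG dinucleotides numbered 21 in the Homer1 window and 40 in the Homer2 window, against a median of 6 over all windows.

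Library depth limits what can be seen for the low members. The libraries held between 13246339 and 24155465 counts, of which between 3908354 and 7591558 fell on nuclear genes, because the mitochondrial ribosomal RNA gene mt-Rnr2 alone took 53.5% to 57.5% of each library. Cardiomyocyte markers marked the tissue as heart muscle, with a summed level of 6 markers between 9093 and 11137 FPKM in each heart. Other cell types were present too, with summed marker levels of 62.7 to 79.1 FPKM (endothelial) and 141 to 180 (fibroblast). Erythrocyte sums were 590 to 865 FPKM in blank, 839 to 1328 in PLCβ1a and 648 to 1100 in PLCβ1b hearts. At an unadjusted edgeR p below 0.05, 3 of 3 tested erythrocyte markers were higher in PLCβ1a against blank, and 0 after adjustment. In PLCβ1b against blank 0 were higher at that p. Hba-a1 and Hba-a2, at mean levels of 175 and 181 FPKM, had 0 counts in every heart. Of 7 neuron markers none reached a mean of 1 FPKM, and Snap25 and Th had 0 counts in all 18 hearts. Stmn2 was the highest neuron marker, at 0.831 FPKM and 12 to 35 counts per heart. The Schwann cell marker Cdh19 was at 1.24 FPKM, so some neural RNA was present. The overexpressed gene was checked first. Plcb1 FPKM ranged from 0.806 to 1.14 in rAAV6-blank hearts, from 3.18 to 5.28 in rAAV6-PLCβ1a hearts and from 4.16 to 13.2 in rAAV6-PLCβ1b hearts. All 12 hearts given a PLCβ1 vector lay above every rAAV6-blank heart. Reads of the vector and of the endogenous gene were not separated, and neither were the splice variants.

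Scaffold transcripts of the ventricle came mostly from Sptan1, Homer1, Homer2 and Shank3. Over all 18 hearts the mean FPKM was 25.8 ± 1.30 (SD) for Sptan1, 10.8 ± 1.12 for Homer1, 4.97 ± 0.301 for Homer2, 3.70 ± 0.267 for Shank3, 1.0 ± 0.219 for Homer3, 0.0657 ± 0.0261 for Shank1 and 0.0124 ± 0.0121 for Shank2. This order held in each of the 18 hearts. Ranges of neighbouring genes in the order did not overlap except for Shank1 and Shank2. Sptan1 stood at percentile 96.4 of mean FPKM over all genes, Shank3 at percentile 77.1 and Homer3 at percentile 58.2. Shank1 at percentile 40.4 and Shank2 at percentile 32.9 lay among genes with few or no reads. Levels per kilobase of union exon computed from the counts (RPKM) gave the same order of means, with Homer2 above Shank3 in 16 of 18 hearts. The Homer1 level depended on the measure, since it was 6.20 as RPKM against 10.8 as FPKM, and the cause was not tested. RNA came from whole ventricle, so fewer cells of a type and less RNA per cell cannot be told apart for any of these genes.

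**Figure D1:**
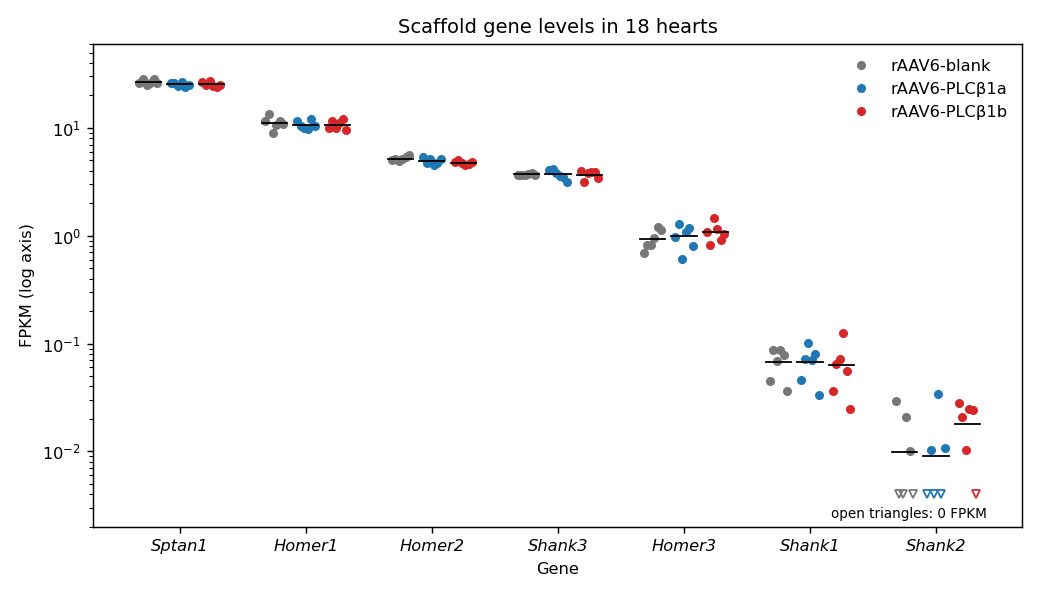
FPKM (vertical log axis) of the 7 scaffold genes (horizontal axis, in order of mean level) in 6 rAAV6-blank (grey), 6 rAAV6-PLCβ1a (blue) and 6 rAAV6-PLCβ1b (red) hearts; each point is a heart, black lines are group means and open triangles stand for 0 FPKM. The 3 groups sit side by side for every gene, and the genes span from about 25.8 for Sptan1 to 0.0124 for Shank2.

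No member passed the test for a difference between groups. In PLCβ1b against blank, 0 of the 6 members that passed the filter on low counts were called at a false discovery rate (FDR) below 0.1 by edgeR's quasi-likelihood test with Benjamini-Hochberg adjustment over 12281 genes, beside 0.0977% of all genes called. In PLCβ1a against blank the count was 0 of 6, beside 0.0814% of all genes, and in PLCβ1b against PLCβ1a it was 0 of 6, beside 0.00814% of all genes. At an unadjusted p below 0.05 the members numbered 1, 0 and 0 in these comparisons, beside 7.43%, 8.81% and 4.56% of all genes, and DESeq2 and limma called 0 members as well. The lowest edgeR FDR of a member was 0.542, 0.703 and 1.0 respectively. No member had separate groups of depth-scaled counts (CPM, counts scaled to library size), beside 0.480%, 0.594% and 0.179% of all genes. At shares this low, 0 of 6 does not set the members apart from other genes. Median log2 fold changes over the 6 members were -0.05, -0.01 and -0.01, beside medians of -0.000892, -0.00176 and 0.000884 over all genes tested. Shank2 was the member that failed the filter. The 2 comparisons with rAAV6-blank share their control hearts.

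**Figure D2:**
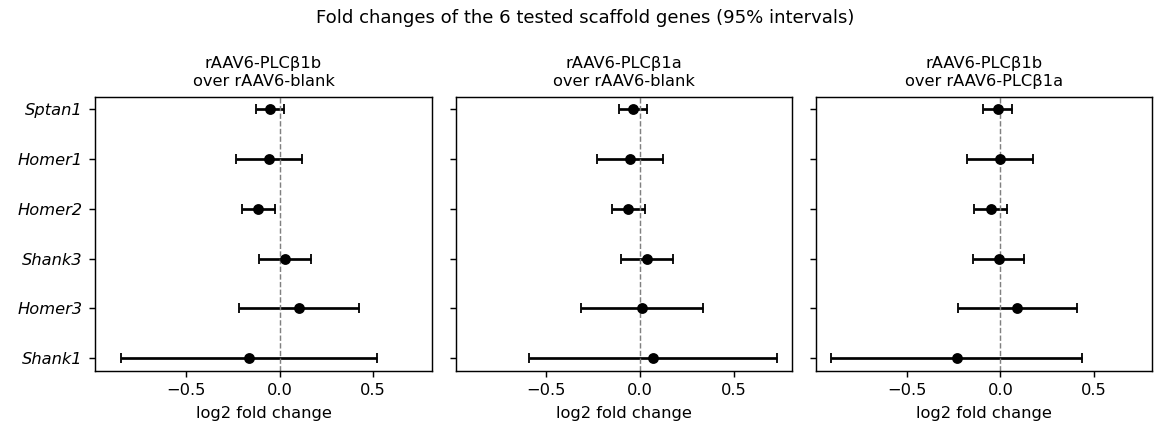
Log2 fold changes (horizontal axes) of the 6 tested scaffold genes (vertical axis) in the 3 comparisons, from edgeR; points are estimates, bars are 95% intervals and the dashed line is no change. Of the 18 intervals, only that of Homer2 in PLCβ1b against blank leaves out 0, and no gene was called after adjustment.

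Shank3, the member whose SH3 domain binds PLCβ1b, lies on the plus strand at chr15:89499857-89560260 with 22 exons. Its FPKM in rAAV6-blank hearts ran from 3.64 through a median of 3.69 to 3.84. In rAAV6-PLCβ1a hearts it ran from 3.18 through 3.69 to 4.18, and in rAAV6-PLCβ1b hearts from 3.17 through 3.84 to 3.95. The groups overlapped, and the blank hearts lay inside the range of both PLCβ1 groups. The group means were nearly equal, at 3.71 ± 0.0718, 3.71 ± 0.368 and 3.69 ± 0.318 FPKM (SD, n = 6 each) for blank, PLCβ1a and PLCβ1b. The log2 fold change on counts was 0.03 (SE 0.07, edgeR FDR 0.942) for PLCβ1b against blank, with a 95% interval of 0.928 to 1.12 on the fold scale. For PLCβ1a against blank it was 0.04 with a 95% interval of 0.934 to 1.13 on the fold scale. On log2(FPKM + 0.1) both estimates were below 0, at -0.014 and -0.0043. Shank3 counts lay between 328 and 696 per heart.

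By FPKM, Plcb1 lay below Shank3 in every rAAV6-blank heart and above it in every rAAV6-PLCβ1b heart. The ratio of Plcb1 to Shank3 FPKM was 0.265 ± 0.0273 in rAAV6-blank hearts, 1.06 ± 0.304 in rAAV6-PLCβ1a hearts and 2.27 ± 0.970 in rAAV6-PLCβ1b hearts (SD, n = 6 each). It lay above 1 in 0 of 6, 2 of 6 and 6 of 6 hearts. The lowest rAAV6-PLCβ1b heart was at 1.096 and the highest at 3.49. Plcb1 carried these differences, with a log2 fold change of 2.90 for PLCβ1b against blank (edgeR FDR 4.6e-10) and 1.82 for PLCβ1a against blank (edgeR FDR 1.6e-05). PLCβ1b against PLCβ1a gave 1.09 (edgeR FDR 0.00918), a call lost with a robust fit of the dispersion (FDR 0.801) and with limma on log2(FPKM + 0.1) (FDR 0.620). The comparison of ratios between genes rests on FPKM, whose lengths refer to annotated transcripts and not to the vector. Counts did not always keep this order, although union exon lengths were close (7116 bases for Plcb1, 7130 for Shank3). In rAAV6-PLCβ1b heart 8 Plcb1 had 463 counts against 505 for Shank3. In rAAV6-PLCβ1a heart 11, just above 1 by FPKM, Plcb1 had 401 counts against 490 for Shank3.

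**Figure D3:**
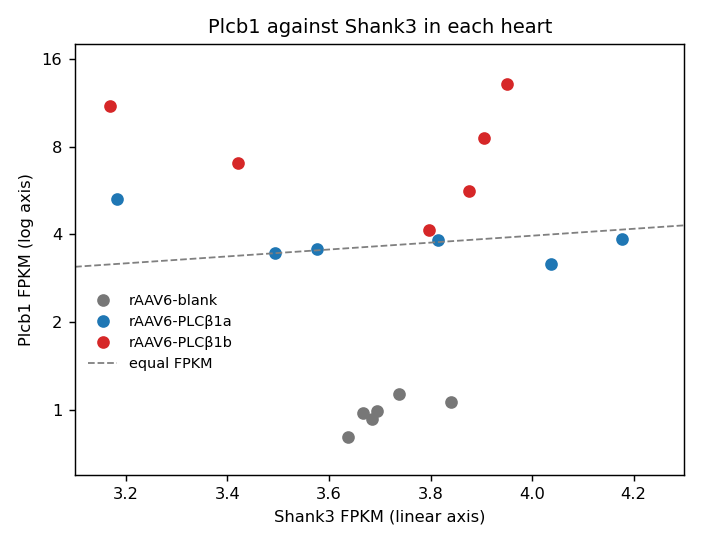
Plcb1 FPKM (vertical log axis) against Shank3 FPKM (horizontal linear axis) in each heart; grey, blue and red points are rAAV6-blank, rAAV6-PLCβ1a and rAAV6-PLCβ1b hearts and the dashed line marks equal FPKM. All 6 rAAV6-PLCβ1b hearts lie above the line and all 6 rAAV6-blank hearts below it, while Shank3 spans 3.17 to 4.18 overall.

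Shank1 and Shank2 were close to the limit of detection. Shank1, a scaffold best known from brain, lies at chr7:44310264-44358353 on the plus strand and had 3 to 15 counts per heart. Its FPKM ran from 0.0366 through a median of 0.0736 to 0.0880 in rAAV6-blank hearts, from 0.0331 through 0.0707 to 0.102 in rAAV6-PLCβ1a hearts and from 0.0246 through 0.0603 to 0.125 in rAAV6-PLCβ1b hearts. The 3 ranges overlapped, with 1 rAAV6-PLCβ1b heart above and 2 below every blank heart. At this depth the 95% interval of PLCβ1b against blank reached from 0.557 to 1.43 on the fold scale, around a log2 fold change of -0.16 (edgeR FDR 0.935).

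Shank2, the third family member, lies at chr7:144175520-144422675 on the plus strand. It had 0 counts in 7 of 18 hearts and no more than 4 in any heart, where a count of 0 allows up to 3 counts in a library of that size. Group sums were 5 counts in rAAV6-blank, 5 in rAAV6-PLCβ1a and 12 in rAAV6-PLCβ1b. FPKM ran from 0 through a median of 0.00502 to 0.0291 in rAAV6-blank hearts, from 0 through 0.00513 to 0.0338 in rAAV6-PLCβ1a hearts and from 0 through 0.0225 to 0.0279 in rAAV6-PLCβ1b hearts. Mean FPKM did not separate PLCβ1b from blank by an exact permutation test (p = 0.260, two-sided). Without the filter on low counts the log2 fold change for PLCβ1b against blank was 1.09 (edgeR FDR 0.733), so no difference of Shank2 was detected. Shank3 therefore made up 98.0% ± 0.612, 98.0% ± 0.675 and 97.9% ± 1.0 of summed Shank FPKM in blank, PLCβ1a and PLCβ1b hearts (SD, n = 6 each), and no difference between a pair of groups passed an exact permutation test (p between 0.810 and 0.939).

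Homer2, a long coiled-coil Homer, had the lowest p-value of the members and did not pass the adjusted threshold. It lies at chr7:81600481-81706925 on the minus strand. Homer2 FPKM ran from 4.90 through a median of 5.14 to 5.64 in rAAV6-blank hearts, from 4.57 through 4.90 to 5.34 in rAAV6-PLCβ1a hearts and from 4.55 through 4.74 to 5.08 in rAAV6-PLCβ1b hearts. Of the rAAV6-PLCβ1b hearts, 5 of 6 lay below every blank heart, and heart 6 overlapped them. Mean FPKM was 5.20 ± 0.259, 4.92 ± 0.304 and 4.77 ± 0.188 (SD, n = 6 each). The log2 fold change for PLCβ1b against blank was -0.11 (SE 0.04, edgeR FDR 0.542), with a 95% interval of 0.869 to 0.982 on the fold scale before adjustment. By FPKM an exact permutation test gave p = 0.00649, or 0.136 after adjustment over 21 tests of the 7 members. For PLCβ1a against blank Homer2 gave -0.06 (edgeR FDR 0.703), and for PLCβ1b against PLCβ1a -0.05 (edgeR FDR 1.0). The sign for PLCβ1b against blank was the same under every alternative and after leaving out each heart, with FDR values between 0.473 and 0.756.

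**Figure D4:**
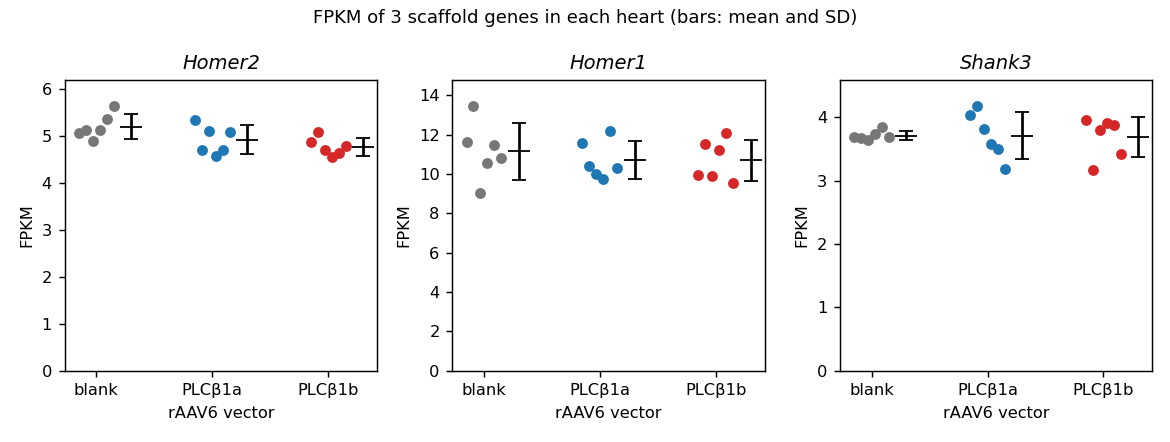
FPKM (vertical axes from 0) of Homer2, Homer1 and Shank3 in each heart by rAAV6 vector (horizontal axes); coloured points are hearts, and black marks with bars are the mean and SD of 6 hearts. Homer2 means step from 5.20 to 4.92 to 4.77 with overlapping points, Homer1 and Shank3 means lie close together, and the blank points of Shank3 are the tightest.

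Homer1, the most abundant Homer, showed a wider spread between hearts than between groups. Its FPKM ran from 9.02 through a median of 11.1 to 13.4 in rAAV6-blank hearts, from 9.76 through 10.4 to 12.2 in rAAV6-PLCβ1a hearts and from 9.52 through 10.6 to 12.1 in rAAV6-PLCβ1b hearts. Both the lowest and the highest heart were in the blank group. Log2 fold changes were -0.05 (SE 0.09, edgeR FDR 0.916) for PLCβ1b against blank and -0.05 (SE 0.09, edgeR FDR 0.907) for PLCβ1a against blank, and both turned above 0 when blank heart 30 was left out (0.012 and 0.016). The 95% interval for PLCβ1b against blank was 0.853 to 1.09 on the fold scale.

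Homer3, the least abundant Homer, lies at chr8:70282999-70294361 on the plus strand and had 23 to 62 counts per heart. It shares 874 exon bases with Ddx49 on the opposite strand, and counting was strand-specific. Homer3 FPKM ran from 0.695 through a median of 0.894 to 1.21 in rAAV6-blank hearts, from 0.606 through 1.03 to 1.29 in rAAV6-PLCβ1a hearts and from 0.814 through 1.06 to 1.45 in rAAV6-PLCβ1b hearts. The group ranges overlapped. The log2 fold change for PLCβ1b against blank was 0.10 (SE 0.16, edgeR FDR 0.913), with a 95% interval of 0.860 to 1.34 on the fold scale. Homer1 made up 64.3% ± 3.19, 64.4% ± 1.58 and 64.5% ± 2.79 of summed Homer FPKM in blank, PLCβ1a and PLCβ1b hearts (SD, n = 6 each; exact permutation p between 0.890 and 0.931). On RPKM from the counts that share was 54.5%, 54.5% and 54.8%. The mean ratio of summed Homer to summed Shank FPKM was 4.56, 4.42 and 4.42.

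Sptan1, the αII spectrin gene, lies at chr2:29965560-30031450 on the plus strand with 3 transcripts of 7371 to 7434 coding bases. Its FPKM ran from 24.9 through a median of 26.1 to 28.5 in rAAV6-blank hearts, from 24.2 through 25.5 to 26.6 in rAAV6-PLCβ1a hearts and from 24 through 25.1 to 27.0 in rAAV6-PLCβ1b hearts. The groups overlapped, with 2 of 6 hearts of each PLCβ1 group below every blank heart. With 2310 to 4428 counts per heart its intervals were the narrowest of the members. The log2 fold change was -0.05 (SE 0.04, edgeR FDR 0.792) for PLCβ1b against blank, with a 95% interval of 0.916 to 1.02 on the fold scale, and -0.04 (SE 0.04, edgeR FDR 0.821) for PLCβ1a against blank.

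Known partners of the scaffold were read from lists. Of 14 Shank-side partners, 10 passed the filter and 0 were called in any comparison. The most abundant were Dlg1 and Arhgef7, at 11.2 and 9.41 FPKM, while Dlgap2 and Lrrc7, of the neuronal postsynaptic density, had no more than 1 count in any heart. Baiap2, an actin regulator that binds Shank, had the lowest p-values of this list. Its FPKM was 0.995 to 1.65 in rAAV6-blank hearts, 0.635 to 0.933 in rAAV6-PLCβ1a hearts and 0.505 to 0.993 in rAAV6-PLCβ1b hearts. All 12 PLCβ1 hearts lay below every blank heart by FPKM, narrowly for PLCβ1b, on 25 to 64 counts per heart. The share of all genes separate by FPKM was not computed. By CPM it was 0.480% for PLCβ1b and 0.594% for PLCβ1a against blank. The log2 fold changes of -0.52 for PLCβ1b and -0.48 for PLCβ1a did not pass the threshold (edgeR FDR 0.271 and 0.286). Sharpin, a Shank-binding protein, gave -0.13 and -0.20 (edgeR FDR 0.755 and 0.480).

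Of 19 Homer-binding signalling proteins, 16 passed the filter, and 1 was called. Cacna1c, the pore subunit of the L-type calcium channel, rose in PLCβ1a against blank by a log2 fold change of 0.22 (edgeR FDR 0.0758). In PLCβ1b against blank it gave 0.18 (edgeR FDR 0.192), and the PLCβ1 groups differed by -0.03 (edgeR FDR 1.0). Cacna1c FPKM was 18.9 to 22.2 in rAAV6-blank hearts, 21.4 to 25.8 in rAAV6-PLCβ1a hearts and 21.1 to 25.3 in rAAV6-PLCβ1b hearts. These FPKM ranges overlapped, although CPM did not overlap between blank and either PLCβ1 group. Of all genes, 0.594% had no such overlap for PLCβ1a and 0.480% for PLCβ1b against blank. The PLCβ1a call would be lost at an FDR of 0.05, and at 0.1 it held in 13 of 26 refits. It was lost without any of 10 hearts (blank 26, 30, 32 or 34, PLCβ1a 7, 9, 11 or 14, PLCβ1b 6 or 10), in the fit of only the 2 groups (FDR 0.111) and with limma on log2(FPKM + 0.1) (FDR 0.422). DESeq2 called Cacna1c in PLCβ1b against blank too (FDR 0.0646). Ryr2, the calcium release channel of the sarcoplasmic reticulum, was the most abundant Homer-binding gene at 116 FPKM and gave -0.03 and 0.05 (edgeR FDR 0.923 and 0.804).

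The spectrin skeleton list held 18 genes, of which 13 passed the filter and 0 were called. Sptbn1, the β subunit that pairs with αII spectrin, was the most abundant at 93.8 FPKM, above Sptan1 at 25.8. Its FPKM was 89.1 to 96.8 in rAAV6-blank hearts, 88.5 to 96.6 in rAAV6-PLCβ1a hearts and 87.4 to 100.1 in rAAV6-PLCβ1b hearts. Tmod1, which caps actin filaments, gave -0.10 and -0.09 in PLCβ1b and PLCβ1a against blank (edgeR FDR 0.488 and 0.413).

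Homer1 was then compared with the activity-induced genes. Of 17 immediate early genes, 16 passed the filter and 0 were called in any comparison. Their median log2 fold changes were 0.47 in PLCβ1b and 0.61 in PLCβ1a against blank. At an unadjusted edgeR p below 0.05, 3 of the 16 were higher and 1 lower in PLCβ1b against blank, beside 7.43% of all genes. In PLCβ1a against blank 9 were higher and 1 lower, beside 8.81% of all genes. Ier3 was the lower gene in both. Egr1, a transcription factor of this class, ran from 0.995 through a median of 2.27 to 3.32 FPKM in rAAV6-blank hearts, from 1.62 through 4.03 to 25.9 in rAAV6-PLCβ1a hearts and from 0.908 through 2.82 to 13.4 in rAAV6-PLCβ1b hearts. The mean log2 CPM of the 16 genes spanned 1.67 to 3.86 over the hearts, and rAAV6-PLCβ1a heart 7 and rAAV6-PLCβ1b heart 16 were highest. No relation with Homer1 was detected. Over 18 hearts Pearson's r was 0.11 (permutation p = 0.682) and Spearman's rho 0.18 (permutation p = 0.479), and r was -0.17 without the 2 hearts farthest from the median. Within groups of 6 hearts r was -0.45, 0.27 and 0.53 for blank, PLCβ1a and PLCβ1b, with exact permutation p of 0.346, 0.507 and 0.269. Spearman's rho within groups was -0.14, 0.77 and 0.43, with exact permutation p of 0.803, 0.103 and 0.419. With Benjamini-Hochberg adjustment over these 4 relations the lowest p was 0.676 for Pearson's r and 0.411 for Spearman's rho. Gene-level values do not show how the short Homer1 form behaved.

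**Figure D5:**
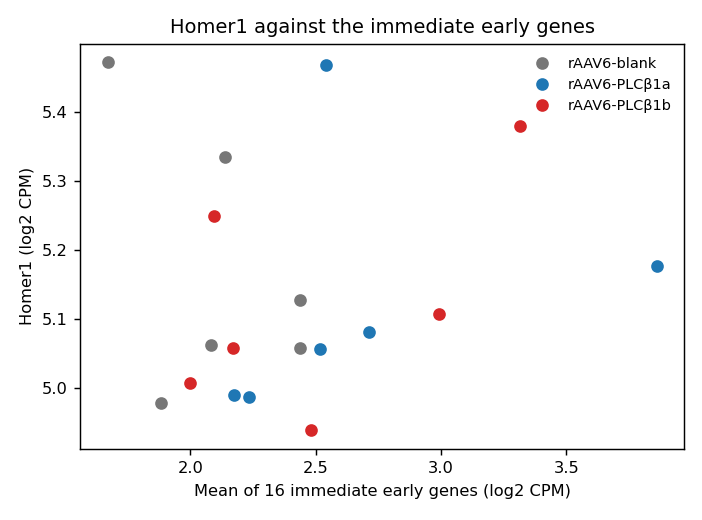
Homer1 log2 CPM (vertical axis) against the mean log2 CPM of 16 immediate early genes (horizontal axis) in each heart; grey, blue and red points are rAAV6-blank, rAAV6-PLCβ1a and rAAV6-PLCβ1b hearts. The heart with the lowest immediate early mean (1.67) has the highest Homer1, and no trend joins the 18 points.

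The members were also compared with each other across hearts. Over 18 hearts 15 pairs of the 6 tested members were compared by log2 CPM and none passed Benjamini-Hochberg adjustment (lowest adjusted permutation p = 0.169). The strongest relation was Homer2 with Homer3 (r = -0.58, rho = -0.51, permutation p = 0.0112 and 0.0325), which was -0.61 with group means removed, -0.71 without the 2 hearts farthest from the median and -0.29 on log2(FPKM + 0.1). Homer1 with Sptan1 gave r = 0.53 (permutation p = 0.0225, rho = 0.34 with p = 0.172). It was 0.52 with group means removed, 0.14 without the 2 hearts farthest from the Homer1 median and 0.13 on log2(FPKM + 0.1). Those 2 hearts were picked by their Homer1 values, so leaving them out also narrows the range. Within the 6 rAAV6-PLCβ1b and the 6 rAAV6-PLCβ1a hearts, 12 relations of a member with Plcb1 gave no adjusted exact permutation p below 0.813. Sptan1 had the largest of these, r = -0.74 and -0.64, with exact permutation p of 0.103 and 0.176, and on log2(FPKM + 0.1) they were 0.01 and -0.21.

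As a description with no test, the genes whose group-centred log2 CPM was most like each member over the 18 hearts were read from 12280 others. Homer2 was most like Dmd, the dystrophin gene (r = 0.83), ahead of Oxsr1 and Polr2m. Homer1 was most like Lin7c (r = 0.88), ahead of Ubxn2a and Slain2, and Sptan1 most like Arntl, a circadian clock gene (r = 0.90), ahead of Daam1 and Col4a1. Shank3 was most like Ube4b (r = 0.84), ahead of Dpp9 and Tmco6. Homer3 led with Tnfrsf19 (r = 0.79), ahead of Crlf3 and Cdkn2aipnl, and Shank1 with Nlrc3 (r = 0.80), ahead of Gtf2f1 and Trpc2, at very low counts. The points share library depth and scaling. These genes are the highest of 12280 values from 18 hearts, and how high such values would be by chance was not computed.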

How the data were processed

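RNA of 18 mouse ventricle samples, 6 per vector, was measured by strand-specific, paired-end sequencing after ribosomal RNA depletion. The authors aligned reads to mm10 with TopHat2 and deposited raw counts per gene made with HTSeq in union mode, used here as deposited. The authors also deposited FPKM per gene. The submitters' processing notes list TopHat2 2.0.10 and Cufflinks 2.1, without saying which program made the FPKM. The deposited exon coordinates gave gene positions and union exon lengths. The members, lists and comparisons were chosen with earlier results of these data known.

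Counts were scaled by TMM and fitted with edgeR 4.0.16 (R 4.3.3) by the quasi-likelihood test, all 3 groups together. Low genes were removed by filterByExpr at a minimum count of 10 and a minimum total of 15 in a smallest group of 6 hearts, which left 12281 of 23457. P-values were adjusted by Benjamini-Hochberg over those genes and called at an FDR below 0.1. Standard errors are the absolute log2 fold change divided by the square root of F, and 95% intervals use the same test. FPKM means were compared by two-sided exact permutation tests of 6 against 6 hearts (smallest p 0.0022), and correlations by 100000 permutations, or by all 720 orders within a group. CPM are counts scaled to the TMM library size; log2 CPM added a prior count of 2. The code was tested on simulated data. No sample column was left unused (0 in either table). Hearts are separate mice, and no batch or date is given in the labels used here. Heart numbers ran from 26 to 36 in rAAV6-blank, 7 to 21 in rAAV6-PLCβ1a and 4 to 17 in rAAV6-PLCβ1b. The labels also number the libraries group by group. What the numbers stand for is not given. Any effect of library order cannot be told apart from the vector in any comparison, PLCβ1b against PLCβ1a included. An effect of heart number cannot be told apart from the vector in comparisons with blank.

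Genes named are the members, Plcb1, in each list the 4 most abundant and the 2 with the lowest p in each comparison with blank together with any called gene, and for each tested member the 3 most similar genes. Not all of those are printed, and some list genes are not reported here. Dlgap2, Lrrc7, mt-Rnr2, Stmn2, Cdh19, Hba-a1 and Hba-a2 were named after their values were seen. Date-like names (27) and 4 entries sharing a name were not matched between tables, and no member was among them. Older symbols were matched through RefSeq synonyms. Alternatives were DESeq2 1.42.0, no low-count filter, only the 2 groups compared, upper-quartile scaling, leaving out mitochondrial genes, limma 3.58.1 on log2(FPKM + 0.1) and log2(FPKM + 1), an FDR of 0.05, RPKM from counts, and each heart left out. A robust dispersion fit and shares of counts were added after seeing the data. Protein sequences were not used here.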

Additional observations from a re-analysis of the deposited data

Results flagged for a closer look

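Of 48 member and group combinations of 6 hearts tested for a heart far from the others (CPM, FPKM and the family shares, by Dixon's ratio at the 95% critical value), 4 were marked, all in rAAV6-PLCβ1a hearts. For independent groups of normally distributed values about 1 in 20 would be marked by chance. That rate does not hold here, because CPM, FPKM and share of a gene are related and Shank2 counts were few. Shank2 stood apart in rAAV6-PLCβ1a heart 13, at 0.165 CPM and 0.0338 FPKM, with the next hearts at 0.0513 CPM and 0.0107 FPKM, on no more than 3 counts. Homer1 stood apart in rAAV6-PLCβ1a heart 14 at 44.1 CPM, with the next heart at 36.1 CPM. The Homer1 share of summed Homer FPKM was likewise highest in rAAV6-PLCβ1a heart 14, at 67.4%, with the next heart at 64.7%. Blank heart 30 reached a Homer1 level of 44.3 CPM, so the value of heart 14 was not outside the range of all 18 hearts.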

How the results depend on the processing

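No member was called under any alternative, and the lowest FDR of a member was 0.473. Of 466 alternative values of the 18 member log2 fold changes 433 kept their direction and 33 turned it, none of those with an FDR below 0.915. No paired analysis was possible because the 3 groups share no heart number, so no replicate block could be fitted. With limma on log2(FPKM + 0.1) and log2(FPKM + 1), Shank3 was -0.0135 and -0.0102 in PLCβ1b against blank and -0.00433 and -0.00264 in PLCβ1a against blank, and Shank1 was -0.00587 and -0.000573 in PLCβ1a against blank.

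Leaving out each heart gave ranges across 0 for these log2 fold changes. In PLCβ1b against blank they were -0.109 to 0.0121 for Homer1, -0.371 to 0.00826 for Shank1 and -1.97e-05 to 0.0720 for Shank3. In PLCβ1a against blank they were -0.119 to 0.0155 for Homer1, -0.107 to 0.105 for Homer3, -0.0926 to 0.241 for Shank1 and -0.00158 to 0.0872 for Shank3. In PLCβ1b against PLCβ1a they were -0.0590 to 0.0649 for Homer1, -0.00177 to 0.210 for Homer3, -0.0573 to 0.0328 for Shank3 and -0.0806 to 0.0192 for Baiap2.

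The differences in family shares also turned. For the Shank3 share the ranges without a heart were -0.380 to 0.217 (PLCβ1b against blank), -0.151 to 0.236 (PLCβ1a against blank) and -0.407 to 0.190 points (PLCβ1b against PLCβ1a). Shares of counts gave 0.00495, -0.105 and 0.110 points, and RPKM gave -0.0981 and 0.0873 points in the last pair of comparisons. For the Homer1 share the ranges were -0.540 to 1.25, -0.561 to 1.07 and -0.602 to 0.792 points, and RPKM gave -0.0110 points in PLCβ1a against blank. On log2(FPKM + 0.1) the correlation with Plcb1 in rAAV6-PLCβ1b hearts was 0.0589 for Homer1 and 0.0105 for Sptan1, and over 18 hearts Shank1 gave 0.0274 with Homer3 and -0.0351 with Sptan1.

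Counts over all genes moved more. PLCβ1b against blank called 12 genes, and 6 at an FDR of 0.05, 24 with DESeq2, 26 without the filter, 6 with only the 2 groups, 4 and 5 with limma at the low and high pseudocount. With a heart left out it called 4 to 17, with values more than 1.5 times lower without blank heart 33 (7) or 34 (4) or rAAV6-PLCβ1b heart 4 (4), 6 (7) or 17 (6). PLCβ1a against blank called 10, and 2, 33, 32, 6, 6 and 6 in that order, 17 with the robust fit. With a heart left out it called 2 to 20, with 2 without blank heart 30 or 34, rAAV6-PLCβ1a heart 7 or 11, or rAAV6-PLCβ1b heart 6 or 10, 4 without rAAV6-PLCβ1a heart 14, 6 without blank heart 26 or 32 or rAAV6-PLCβ1a heart 9, 16 without blank heart 33, 17 without rAAV6-PLCβ1b heart 8 or 16, and 20 without rAAV6-PLCβ1a heart 13. PLCβ1b against PLCβ1a called 1 gene, Plcb1, and 2 without the filter, 2 with only the 2 groups, 2 without mitochondrial genes, 0 with the robust fit and 1 to 2 with a heart left out, 2 without blank heart 26, 30 or 32, rAAV6-PLCβ1a heart 14, or rAAV6-PLCβ1b heart 8 or 17. In that comparison limma did not call Plcb1 at the low or high pseudocount (FDR 0.620 and 0.570), so an unchanged count need not mean the same gene. There, 560 genes had an unadjusted edgeR p below 0.05. The cause of these changes was not tested. The robust fit and the shares of counts were added after seeing the data. Depth limits Shank1, at 3 to 15 counts per heart, and Shank2, at 0 to 4.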

Other observations

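Shank3 was more even between rAAV6-blank hearts than between hearts of either PLCβ1 group. Its CPM spanned 24.5 to 26.4 in the 6 blank hearts, 21.8 to 29.7 in the 6 rAAV6-PLCβ1a hearts and 22.4 to 29.0 in the 6 rAAV6-PLCβ1b hearts. The SD was 0.737, 2.91 and 2.55 CPM respectively. No test was run on this difference in spread, which was noticed after the values were seen. Of the other 5 tested members, Homer3 also had its smallest SD in blank hearts, at 0.340 CPM against 0.576 in PLCβ1a and 0.444 in PLCβ1b hearts. Homer2 SDs were 1.92, 2.67 and 1.73 CPM and Shank1 SDs 0.200, 0.184 and 0.245 CPM in blank, PLCβ1a and PLCβ1b hearts, with the blank group not the smallest. Homer1 SDs were 4.97, 4.73 and 4.07 CPM in blank, PLCβ1a and PLCβ1b hearts, and Sptan1 SDs were 10.3, 4.39 and 4.37 CPM, with the blank group widest.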
